A study of Mus musculus with 27 samples.

Results

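The comparison described here was made on RNA from motor cortex nuclei of C9-BACexp mice. It set mice given an RNA-targeting CRISPR effector, with a crRNA of no designed target, against mice given the sorting reporter alone. Its members were the 9 libraries whose genotype was labelled C9-BACexp and whose treatment was either RfxCas13d/NTG with EGFP-KASH (NTG, 6 libraries) or EGFP-KASH only (3 libraries, numbered 2, 3 and 5 in the labels), of 27 libraries in the series. C9-BACexp mice carry, as a bacterial artificial chromosome, a human C9ORF72 gene with the expanded G4C2 repeat that causes familial forms of ALS (amyotrophic lateral sclerosis) and of FTD (frontotemporal dementia), beside their own intact mouse C9orf72. The series also held C9-BACexp mice given the repeat-targeting crRNA-13 and C57BL/6J littermates given each of the same treatments.

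NTG mice received an AAV of the PHP.eB serotype that encoded the effector from the ubiquitous CAG promoter with the non-targeted crRNA, mixed with an equal dose of a second PHP.eB vector for EGFP-KASH. EGFP-KASH only mice received the reporter vector without the effector vector, so the groups differed in effector, crRNA and number of vectors together, and these cannot be told apart. The study describes injection of the motor cortex in young animals, with age and dose not given separately for the EGFP-KASH only mice. EGFP-KASH+ nuclei were isolated by fluorescence-activated cell sorting (FACS), so that only nuclei transduced by the reporter vector were read. By staining of C9-BACexp motor cortex, the study found the effector in most, but not all, EGFP-KASH+ cells. The share of sorted NTG nuclei that held the effector was not tested. The labels name the effector RfxCas13d, while the methods of the study name its high-fidelity variant RfxCas13d-N2V8 for this experiment. No library came from an uninjected mouse, and the cell type is labelled primary neuron.

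Cas13d is an RNA-guided ribonuclease that cuts RNA matching its crRNA. Once bound to a target, the enzyme can also cut other RNA nearby, which is called collateral activity and which the high-fidelity variant was made to limit. A non-targeted crRNA has no designed match in the cell, so this comparison addresses what the effector, its crRNA and the additional vector leave in the transcriptome without a target. EGFP-KASH is a fluorescent protein joined to the KASH domain, which anchors it in the outer nuclear membrane through the LINC complex and lets nuclei be sorted. AAV genomes and double-stranded RNA are among the stimuli that cytosolic and endosomal sensors convert into interferon and the products of interferon-stimulated genes.

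Very few genes separated NTG from EGFP-KASH only nuclei. Of 21768 genes tested with edgeR's quasi-likelihood test, 7 (0.0322%) were called at a fold over 1.2 and a Benjamini-Hochberg adjusted p under 0.05. The 5 higher genes (0.023%) were Tll1, Arf4, Rps6ka4, H2-DMa and Gm31298, and the 2 lower genes (0.00919%) were the predicted genes Gm31137 and Gm46165. No member of any of the 35 gene lists examined was called. The test used 4 factors of unwanted variation, the number the study used for its own comparisons, estimated here from the residuals of all 27 libraries. Without the factors, 0 genes were higher and 2 (0.00919%) were lower. The number of genes at an unadjusted p under 0.05 was 2441 (11.2%) with the factors, 1723 higher (7.92%) and 718 lower (3.3%), and 991 (4.55%) without them. Counts of list members at that p, given below, are to be read against the shares with the factors. DESeq2 called 239 genes (1.1%) with the factors and 27 (0.124%) without. The study adjusted its p-values across its pairwise comparisons together. Adjusting the edgeR p-values together with 5 comparisons of the study gave 141 genes.

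One library stood apart, and most of the calls rested on it. EGFP-KASH only replicate 2 held 21278 genes with at least 1 count, against 23159 to 24463 in the other 8 libraries of the comparison and 21535 to 25472 in the other 26 of the series. Its median Spearman correlation with the other libraries was 0.938, the lowest of the series, against 0.954 to 0.962 in the other 8. Its total of 25314003 counts lay inside the range of the comparison, from 23251069 to 36777972 with a median of 26799241 in NTG nuclei, against 25314003, 27892811 and 31863126 in EGFP-KASH only nuclei. It was the lowest or the highest of the 9 libraries for 10596 (48.7%) of all genes tested, against 12.8% to 22.5% for each of the other 8. Among the 2441 genes at an unadjusted p under 0.05 that share was 75.2%, and among the 7 called genes it was 6.

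**Figure D1:**
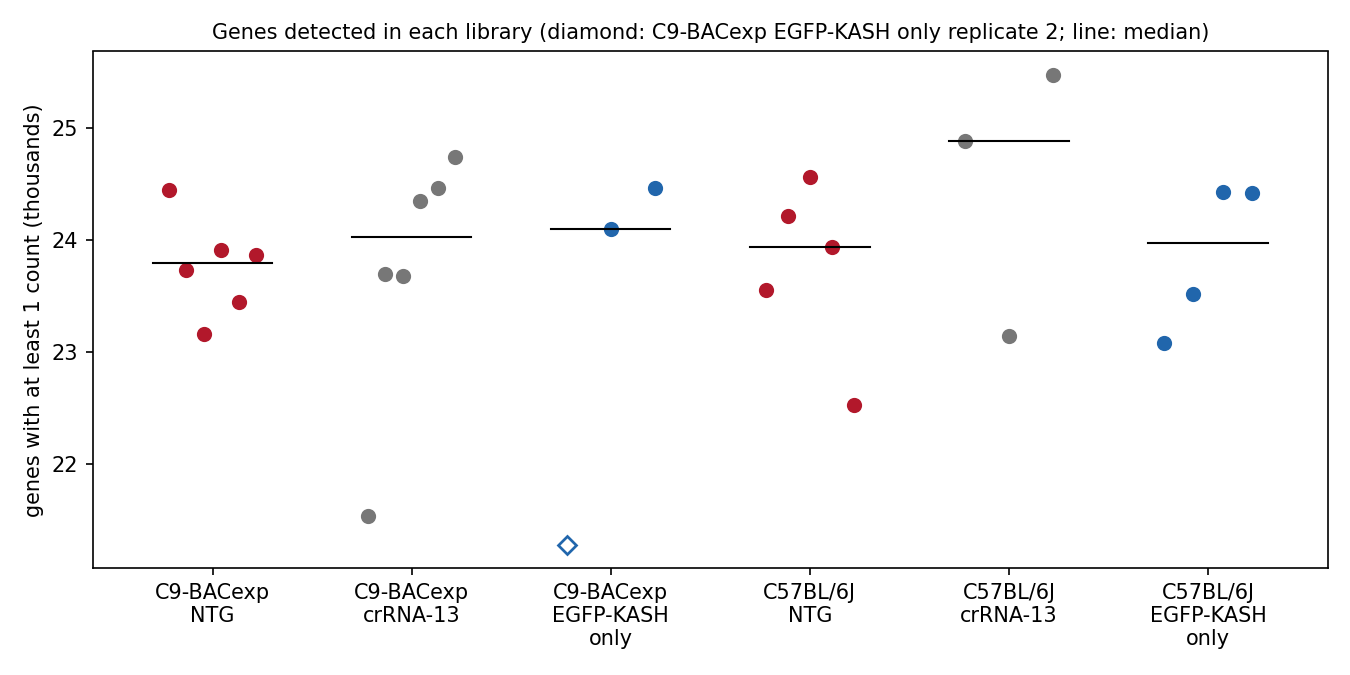
Genes with at least 1 expected count in each library, by group, 1 point a library. The diamond is C9-BACexp EGFP-KASH only replicate 2 and the line the median of each group. EGFP-KASH only replicate 2 of C9-BACexp, with 21278 genes, had the fewest of the 27 libraries although its total of 25314003 counts was not the lowest.

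Leaving that library out left 0 higher genes and 1 lower gene, Gm31137, of 22618 tested (0.00442%). The genes at an unadjusted p under 0.05 then numbered 1027 (4.54%), 446 higher (1.97%) and 581 lower (2.57%). List counts given below without that library are to be read against these shares. Other libraries moved the count as well: it was 97 without EGFP-KASH only replicate 3 and 38 without replicate 5, and 1, 4 and 0 without NTG replicates 2, 3 and 4. Fewer nuclei of a type and less RNA per nucleus cannot be told apart in these bulk libraries. The methods of the study have nuclei isolated per animal, while the labels name no animal, and p-values measure the spread between libraries. By Xist and the Y-linked transcripts the NTG libraries came from 3 female and 3 male mice, against 2 female and 1 male among the EGFP-KASH only libraries.

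Both groups carried the transcripts of neurons, as labelled. Rbfox3, which encodes the nuclear protein NeuN, had a median of 1216 CPM in NTG nuclei, against 1651, 1061 and 1006 CPM in EGFP-KASH only nuclei. CPM are expected counts relative to the TMM-scaled library total. Glial transcripts were present too: Mbp of myelin had a median of 582 CPM in NTG nuclei, against 645, 836 and 627 CPM in EGFP-KASH only nuclei, and the astrocyte glutamate transporter gene Slc1a2 one of 495 CPM in NTG nuclei, against 634, 468 and 533 CPM in EGFP-KASH only nuclei. How many of the sorted nuclei were glial was not tested.

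The human transgene was read in each of the 9 libraries and in none of the C57BL/6J libraries of the same treatments. Human C9ORF72 is transcribed from alternative first exons. Transcripts V1 and V3 begin upstream of the repeat, which lies in their first intron, and V2 begins downstream of it. Their summed level averaged 90.8 ± 10.4 CPM in NTG nuclei (SD, n = 6) and 95 ± 9.85 CPM in EGFP-KASH only nuclei (SD, n = 3), with the NTG libraries between 80.6 and 103 CPM and the EGFP-KASH only libraries at 83.6, 100.5 and 100.8 CPM. The groups overlapped (exact two-sided permutation test over 84 splits, p = 0.643). The smallest p this design allows is 0.0119.

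V3, which the study used as its proxy for the repeat RNA, lay between 25.1 and 32.9 CPM in NTG nuclei with a median of 29.2 CPM, against 70.5, 27.03 and 27.9 CPM in EGFP-KASH only nuclei. V2 lay between 30.1 and 49.3 CPM in NTG nuclei with a median of 36.3 CPM, against 0, 48.3 and 47.4 CPM in EGFP-KASH only nuclei. V1 lay between 20.8 and 29.1 CPM in NTG nuclei with a median of 22.9 CPM, against 13.1, 25.1 and 25.6 CPM in EGFP-KASH only nuclei. Replicate 2 thus had no V2, the lowest V1 and the highest V3 of the 9 libraries, while its sum lay inside the NTG range. The study describes V2 and V3 as giving the same long protein isoform and V1 a short one. How reads were divided among the 3 transcripts in that library was not tested.

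The exact two-sided permutation test gave p = 0.405 for V1, 0.310 for V2 and 0.274 for V3, with an adjusted p of 0.486 for each over 6 measures. After that adjustment a single measure cannot go below 0.0714, so a difference in 1 transcript alone could not have passed 0.05. In the fit over all genes V2 had a log2 fold change of 2.59 ± 0.48 (SE, adjusted p = 0.0987), which depends on the prior count because replicate 2 was at 0, and -0.36 ± 0.28 without replicate 2. V2 was called in 5 of the 31 alternative fits, namely limma-trend and DESeq2 with the factors, the replicate block with the factors, joint adjustment with the comparisons of the study, and the fit without EGFP-KASH only replicate 3, and in each of them replicate 2 was kept. Without replicate 2 the log2 difference of NTG minus EGFP-KASH only nuclei was -0.08 for V1, -0.37 for V2 and 0.07 for V3, each of the opposite sign to the value with it.

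The reporter transcript EGFP-KASH lay between 38.2 and 61.4 CPM in NTG nuclei with a median of 40.9 CPM, against 20.02, 39.1 and 43.2 CPM in EGFP-KASH only nuclei, and the groups overlapped (exact permutation test, p = 0.214, adjusted p = 0.486). Mouse C9orf72, at chr4:35191282-35226186 on the minus strand of GRCm39, averaged 18.8 ± 1.70 CPM in NTG nuclei (SD, n = 6) and 17.4 ± 2.57 CPM in EGFP-KASH only nuclei (SD, n = 3), with p = 0.369 by the exact permutation test and an adjusted p of 0.486. EGFP-KASH and mouse C9orf72 were not called by edgeR either (adjusted p = 0.527 for EGFP-KASH and 0.829 for C9orf72).

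**Figure D2:**
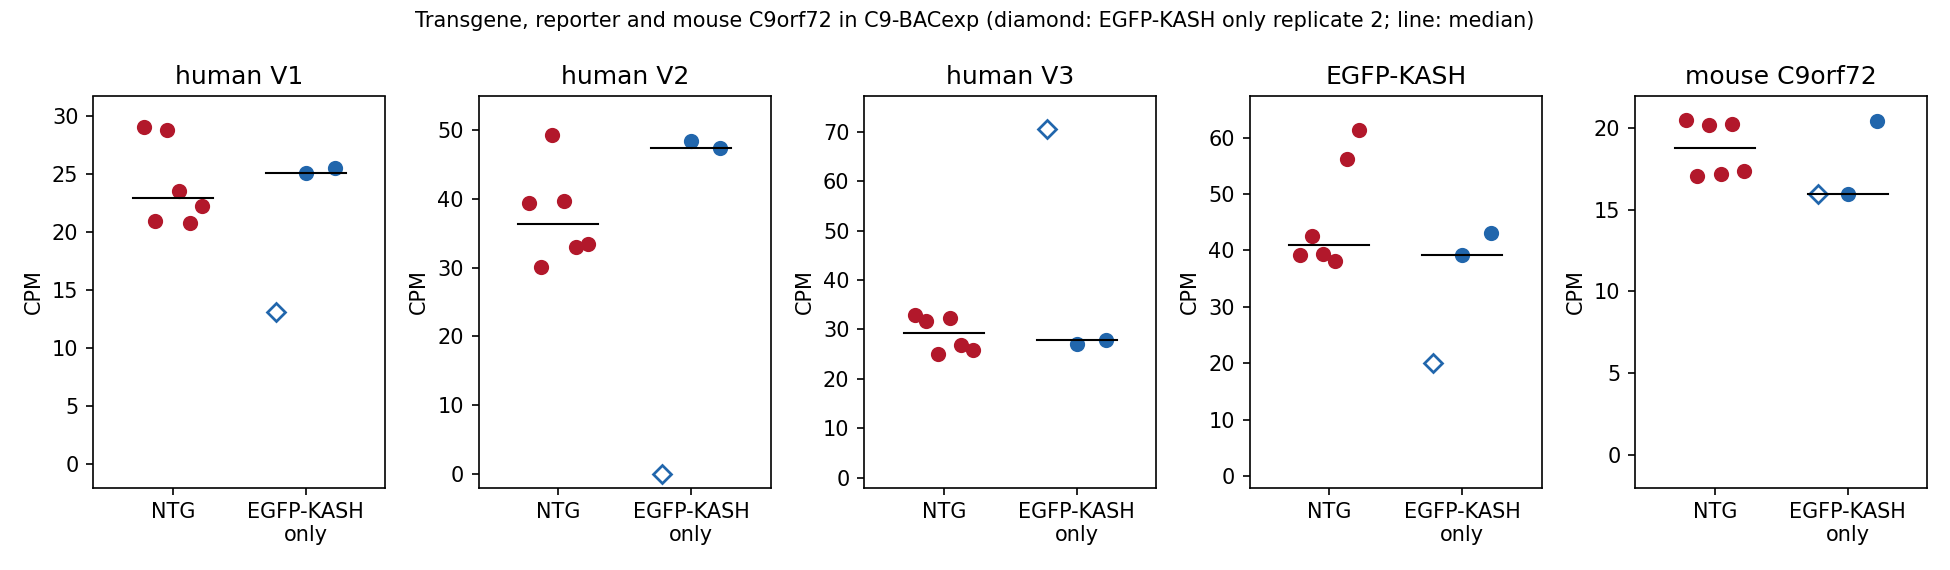
Levels (CPM) of human C9ORF72 transcripts V1, V2 and V3, EGFP-KASH and mouse C9orf72 in the 6 NTG and 3 EGFP-KASH only libraries of C9-BACexp mice (1 point a library, line at the median). The diamonds that stand apart from their group in V2 (0 CPM) and V3 (70.5 CPM) are both EGFP-KASH only replicate 2.

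Among the called genes, Tll1 encodes a tolloid-like metalloproteinase that processes procollagens and antagonists of bone morphogenetic proteins. It lies at chr8:64466142-64659305 on the minus strand. Tll1 was read at 6.17 to 15.4 CPM in NTG nuclei with a median of 9.10 CPM, against 0.879, 8.46 and 7.82 CPM in EGFP-KASH only nuclei. The groups overlapped, and replicate 2 was far below the other 8 libraries. The fitted log2 fold change was 1.252 ± 0.21 (SE, adjusted p = 0.0268). It was 0.81 ± 0.49 without the factors (adjusted p = 1) and 0.31 ± 0.28 without replicate 2 (adjusted p = 1).

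Arf4 encodes a small GTPase of Golgi trafficking and lies at chr14:26359168-26386239 on the plus strand, overlapping Pde12 and the antisense gene Arf4os. Its level lay between 13.4 and 18.7 CPM in NTG nuclei with a median of 14.2 CPM, against 3.28, 16.4 and 12.2 CPM in EGFP-KASH only nuclei. Replicate 3 lay inside the NTG range and replicate 5 just below it, while replicate 2 was far below both. For Arf4 the log2 fold change was 0.73 ± 0.12 (SE, adjusted p = 0.0268) and 0.08 ± 0.16 without replicate 2.

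Rps6ka4 encodes the kinase MSK2, which acts on chromatin and transcription factors downstream of MAP kinases, and lies at chr19:6806022-6818489 on the minus strand. It was read at 16.2 to 18.9 CPM in NTG nuclei, against 5.47, 15.04 and 16.1 CPM in EGFP-KASH only nuclei. All NTG libraries lay above all EGFP-KASH only libraries, but the gap between the lowest NTG and the highest EGFP-KASH only library was narrow. The log2 fold change of Rps6ka4 was 0.61 ± 0.10 (SE, adjusted p = 0.0268) and 0.14 ± 0.13 without replicate 2.

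H2-DMa encodes the alpha chain of the chaperone that loads peptides on MHC class II, and lies at chr17:34338515-34358958 on the plus strand. Its annotated span overlaps that of Brd2 on the other strand. It was read at 17.9 to 22.9 CPM in NTG nuclei with a median of 22.01 CPM, against 8.47, 17.0 and 18.7 CPM in EGFP-KASH only nuclei, and NTG replicate 1 was below EGFP-KASH only replicate 5. The log2 fold change of H2-DMa was 0.59 ± 0.10 (SE, adjusted p = 0.0268), and 0.26 ± 0.11 without replicate 2. Its partner H2-DMb1 was at 0.206 to 0.646 CPM in NTG nuclei, against 0, 0.720 and 0.303 CPM in EGFP-KASH only nuclei, and the groups overlapped.

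Gm31298, a long non-coding RNA at chr10:80448654-80459091 whose span overlaps Scamp4 and Csnk1g2, was read at 0.935 to 1.45 CPM in NTG nuclei, against 0, 0.828 and 0.849 CPM in EGFP-KASH only nuclei. The groups did not overlap. Its log2 fold change was 2.57 ± 0.43 with the factors (SE, adjusted p = 0.0268), a value that depends on the prior count because 1 library was at 0, and 0.39 ± 0.36 without replicate 2.

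The lower genes were high in EGFP-KASH only libraries, Gm31137 in replicates 3 and 5 and Gm46165 mainly in replicate 2. Gm31137, on chromosome 1, was read at 0.0823 to 0.605 CPM in NTG nuclei with a median of 0.185 CPM, against 0.519, 2.99 and 15.6 CPM in EGFP-KASH only nuclei. The NTG libraries held 43 counts of it in all, against 13, 83 and 516 counts in the EGFP-KASH only libraries. Replicates 3 and 5 were above every one of the other 25 libraries of the series, which lay between 0.0366 and 0.605 CPM, so the difference came from high levels in those libraries. The log2 fold change of Gm31137 was -3.99 ± 0.58 (SE, adjusted p = 0.0188), and -5.19 ± 0.63 without replicate 2 (adjusted p = 0.00169), so that it was the 1 gene called with the factors, without them and without replicate 2. It was not called without replicate 5 (log2 fold change -2.41, adjusted p = 0.118) or without NTG replicate 4 (adjusted p = 0.054).

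Gm46165, also on chromosome 1, was read at 0 to 0.138 CPM in NTG nuclei, against 478, 0.288 and 2.06 CPM in EGFP-KASH only nuclei. Replicate 2 alone held 11972 counts of it, and no other library of the 26 exceeded 2.67 CPM. The log2 fold change of Gm46165 was -6.92 ± 1.03 (SE, adjusted p = 0.0205), and -4.56 ± 1.31 without replicate 2 (adjusted p = 0.827).

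**Figure D3:**
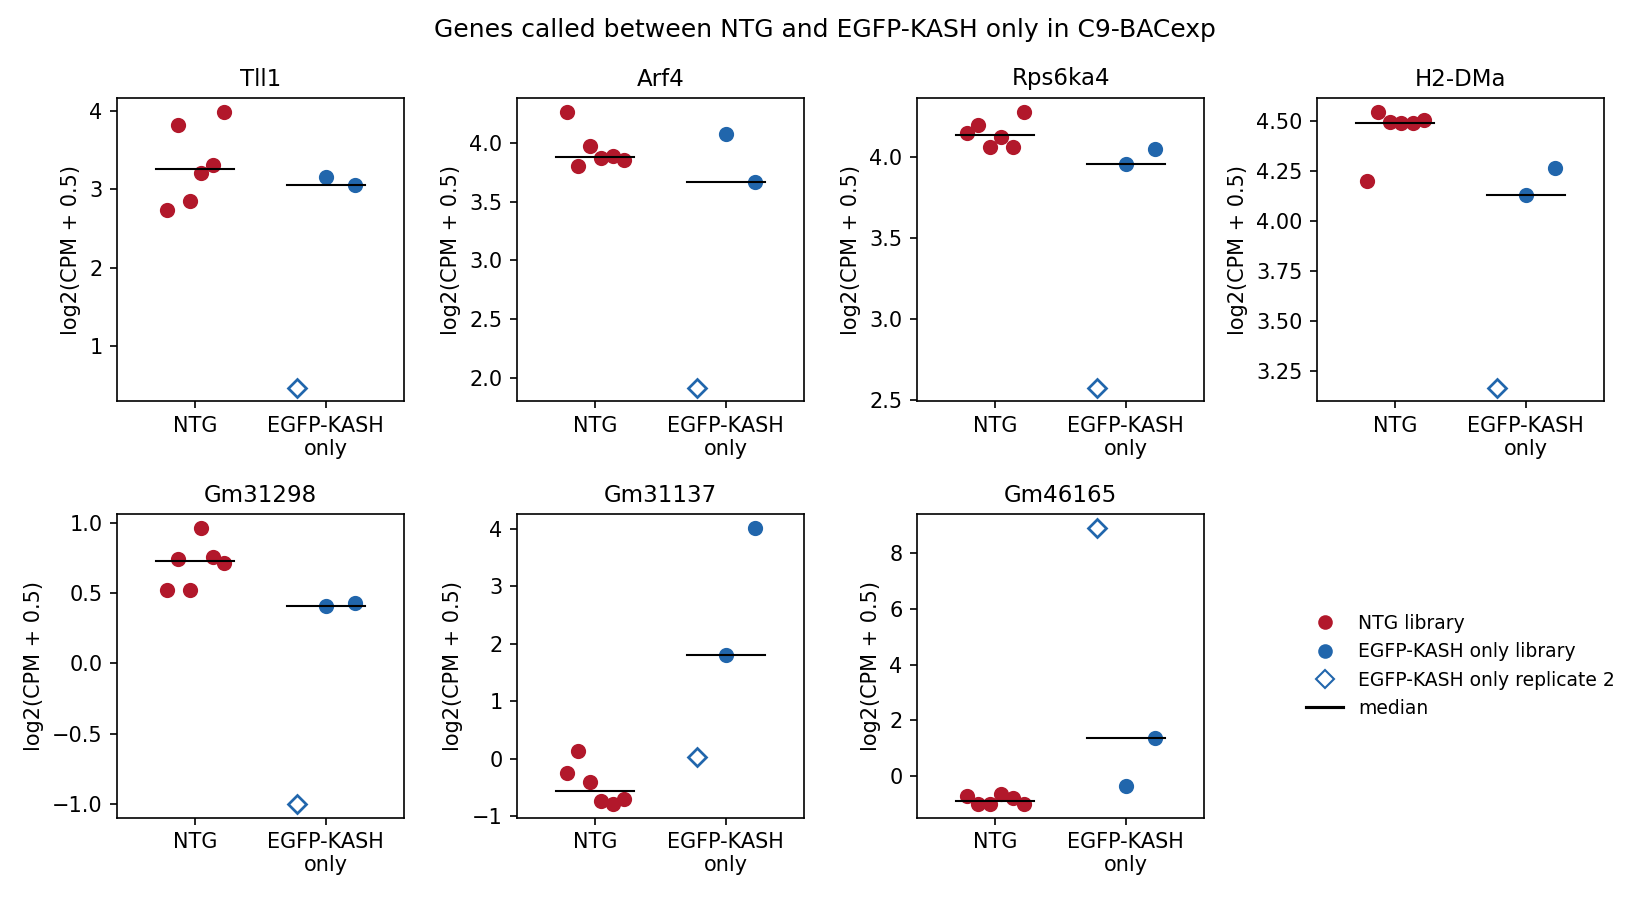
Levels of the 7 called genes on a log2(CPM + 0.5) scale in the 6 NTG and 3 EGFP-KASH only libraries of C9-BACexp mice, 1 point a library, with the line at the median and a diamond for replicate 2. The 5 higher genes have 1 low EGFP-KASH only library, replicate 2, while Gm46165 has 1 high one, again replicate 2, at 478 CPM.

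A plainer view of the levels, with no model, asks for which genes all 6 NTG libraries lay on one side of all 3 EGFP-KASH only libraries. This was so for 465 of the 21768 genes (2.14%), of which 237 (1.09%) were higher and 228 (1.05%) were lower in NTG nuclei. A random split of the 9 libraries would put all 6 NTG libraries highest with a probability of 0.0119, and lowest with the same. Neither share was above that, so a lack of overlap does not by itself set a gene apart. In C57BL/6J mice, with 5 NTG and 4 EGFP-KASH only libraries, 183 genes (0.841%) did not overlap, 91 higher (0.418%) and 92 lower (0.423%) in NTG nuclei. Of these, 1 gene was lower without overlap in both genotypes, 9130204K15Rik, 0 were higher in both, and 3 went in opposite directions. These were Drap1, which encodes a corepressor of transcription and was higher in the NTG nuclei of C9-BACexp mice and lower in those of C57BL/6J mice, and Gm33210 and LOC118568116, both lower in the NTG nuclei of C9-BACexp mice and higher in those of C57BL/6J mice. Drap1 was at 4.28 to 6.86 CPM in NTG nuclei of C9-BACexp mice, against 2.32 to 4.25 CPM in their EGFP-KASH only nuclei, and at 4.51 to 5.48 CPM in NTG nuclei of C57BL/6J mice, against 5.53 to 6.95 CPM in their EGFP-KASH only nuclei. These 4 genes were named after their values were seen, and none was called in C9-BACexp mice (adjusted p of 0.216 to 0.588 by edgeR).

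Members of the gene lists among the 465 were few and of mixed kinds. The share over all genes was 2.14%, and that over all list members was not computed. Their lack of overlap is therefore not read as a result about these genes. Higher in NTG nuclei were the interferon-induced genes Iigp1 and Zbp1, the endothelial Pecam1, the growth factor gene Igf2, the deep-layer marker Syt6, the ribosomal protein gene Rpl24, the respiratory complex II gene Sdhb, the autophagy genes Atg13 and Tfe3, and Chmp2b, an endosomal sorting gene mutated in rare FTD. Lower in NTG nuclei were the immediate early genes Egr4 and Ier2, the splicing genes Srsf7 and Hnrnpa3, the neuronal transcription factor gene Neurod1, Tm4sf1 and Megf11.

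Interferon-stimulated genes, which encode antiviral effectors, gave no called gene among 61 tested. Their median log2 fold change was 0.43, against 0.05 over all genes, and 46 of the 61 were higher, against 58% of all genes. At an unadjusted p under 0.05 there were 9 higher and 0 lower, against 7.92% higher and 3.3% lower of all genes. The smallest adjusted p in the list was 0.142, that of Cmpk2. Without replicate 2 the median was 0.13, against 0.01 over all genes, and 0 members had an unadjusted p under 0.05. In replicate 2, 18 of the 61 genes had no count, against 2 to 5 in NTG nuclei and 2 to 4 in the other EGFP-KASH only libraries, so the fitted values of low members rest on zeros there.

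The summed level of the 61 genes did not overlap between groups. Of the sums of the 35 lists, that of the autophagy genes did not overlap either, and the rest overlapped. It lay between 394 and 450.4 CPM in NTG nuclei with a median of 399 CPM, against 356, 372 and 393 CPM in EGFP-KASH only nuclei. The lowest NTG sum was thus just above the highest EGFP-KASH only sum. For comparison, the C57BL/6J sums were 341 to 837 CPM in NTG nuclei, against 369 to 493.4 CPM in EGFP-KASH only nuclei, and overlapped.

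Adar, which encodes an RNA-editing enzyme with an interferon-inducible isoform, was at 176 to 228 CPM in NTG nuclei with a median of 199 CPM, against 170, 183 and 189 CPM in EGFP-KASH only nuclei. Its log2 fold change was 0.16 ± 0.06 (SE, adjusted p = 0.281). Adar was abundant beside the summed level of the list, and its groups overlapped. A summed level follows abundant members more than low ones. Iigp1, an immunity-related GTPase, was at 0.416 to 1.52 CPM in NTG nuclei, against 0, 0.0720 and 0.394 CPM in EGFP-KASH only nuclei. Zbp1, a sensor of Z-form nucleic acid, was at 0.123 to 1.03 CPM in NTG nuclei, against 0.120, 0.0360 and 0.0910 CPM in EGFP-KASH only nuclei. For both genes all NTG libraries were higher, at levels near or under 1 CPM.

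For Ifit1, Isg15 and Rnf213, also interferon-induced, the groups overlapped. Ifit1, which binds foreign RNA caps, was at 0.304 to 0.690 CPM in NTG nuclei, against 0.959, 0.432 and 0.364 CPM in EGFP-KASH only nuclei. Isg15, a ubiquitin-like modifier, stayed at or under 0.241 CPM in both groups, and Rnf213, a large interferon-induced ubiquitin ligase, was at 12.5 to 23.3 CPM in NTG nuclei, against 9.99, 11.4 and 13.3 CPM in EGFP-KASH only nuclei (log2 fold change 0.48 ± 0.58, SE, adjusted p = 0.800).

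Other immune lists had no called member either. The RNA and DNA sensors and adaptors (28 tested) had a median log2 fold change of 0.05, with 3 higher and 1 lower at an unadjusted p under 0.05, and one of -0.00203 without replicate 2, with 0 in either direction. MHC class I presentation genes (22 tested) had a median of 0.10, or -0.01 without replicate 2, with 0 in either direction at that p, and B2m, the light chain of MHC class I, was at 2.95 to 9.86 CPM in NTG nuclei, against 4.12, 2.63 and 3.73 CPM in EGFP-KASH only nuclei. Complement and acute-phase genes (20 tested) had a median of 0.12, or 0.04 without replicate 2, again with 0 in either direction, and chemokines, cytokines and their receptors (23 tested) one of 0.04 with 0 higher and 1 lower at that p. Complement C4b was at 32.5 to 112 CPM in NTG nuclei, against 36.2, 49.2 and 72.1 CPM in EGFP-KASH only nuclei. The intervals of these low genes were wide, and 12 of the 61 interferon-stimulated genes and 10 of the 22 MHC class I genes had a 95% interval inside 2-fold in both directions.

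**Figure D4:**
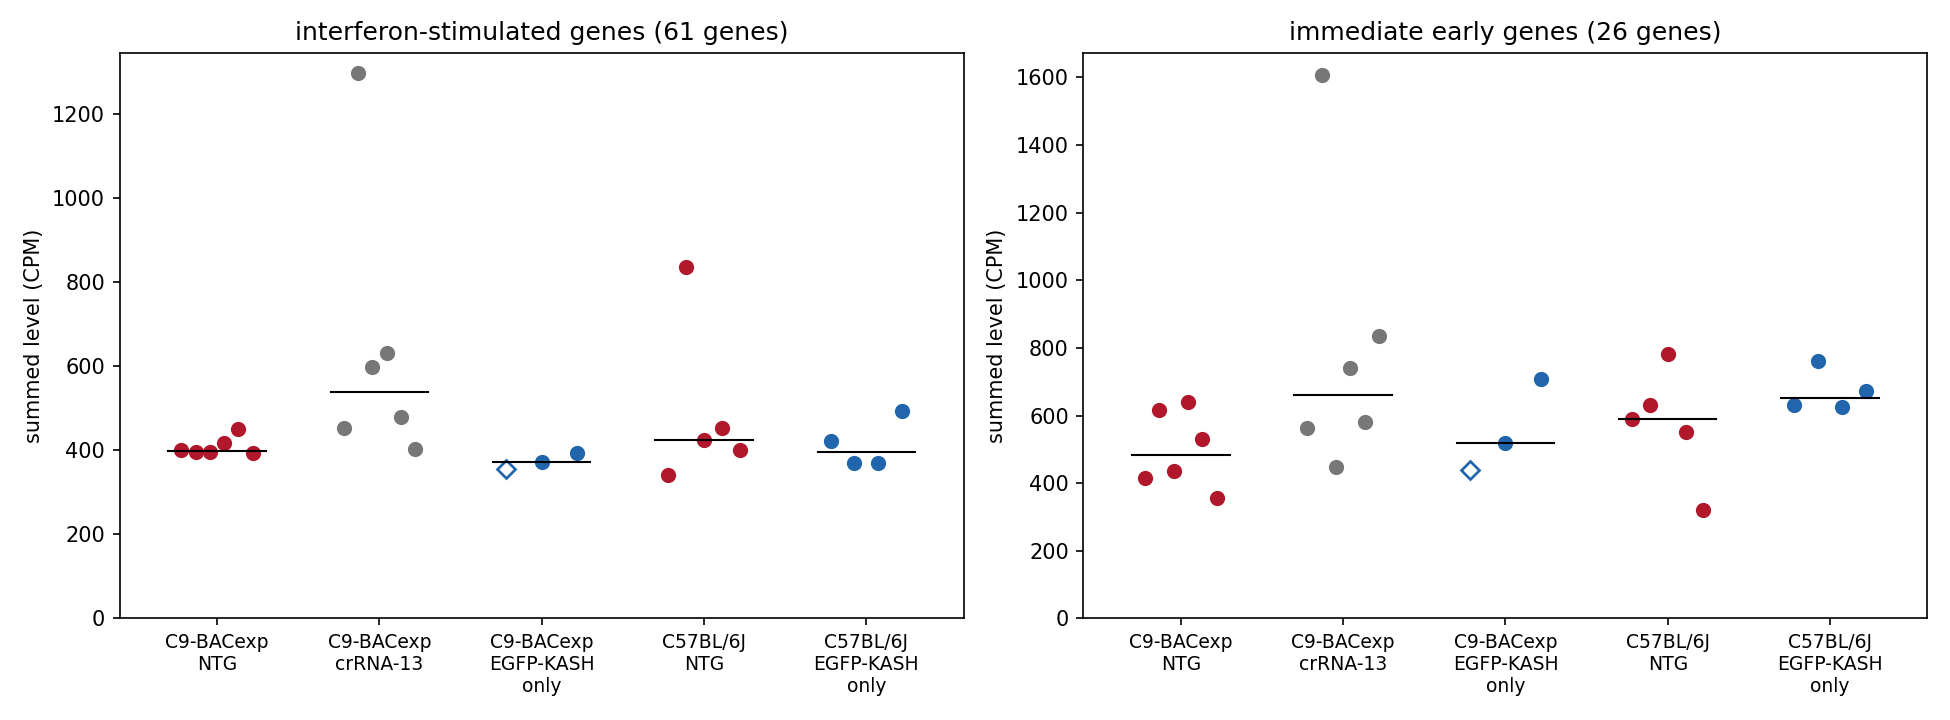
Summed CPM of the interferon-stimulated and the immediate early genes in each library of the NTG and EGFP-KASH only groups of both genotypes, with the crRNA-13 libraries of C9-BACexp mice for reference, 1 point a library. The diamond is C9-BACexp EGFP-KASH only replicate 2 and the line the median of each group, and for the interferon-stimulated genes the 6 C9-BACexp NTG sums (394 to 450.4 CPM) lie above the 3 EGFP-KASH only sums (356 to 393 CPM).

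Immediate early genes are transcribed within minutes of neuronal activity. Of 26 tested, none was called, and the median log2 fold change was -0.25. At an unadjusted p under 0.05, 1 was higher and 4 were lower, against 7.92% higher and 3.3% lower of all genes. Without replicate 2 the median was -0.58 with 0 higher and 9 lower at that p, against 1.97% higher and 2.57% lower of all genes. Egr4, an activity-regulated zinc finger factor, was at 1.03 to 1.63 CPM in NTG nuclei with a median of 1.44 CPM, against 1.998, 2.30 and 3.34 CPM in EGFP-KASH only nuclei. The groups did not overlap, and the log2 fold change was -0.86 ± 0.30 (SE, adjusted p = 0.282), or -1.004 without replicate 2. Ier2, another early response gene, was at 0.247 to 0.608 CPM in NTG nuclei, against 0.839, 0.612 and 1.21 CPM in EGFP-KASH only nuclei, likewise without overlap.

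Other members of that list were highest in EGFP-KASH only replicate 5. Egr1 was at 17.6 to 33.5 CPM in NTG nuclei with a median of 22.6 CPM, against 22.8, 32.7 and 60.2 CPM in EGFP-KASH only nuclei. Npas4, which shapes inhibitory synapses after activity, was at 17.3 to 41.5 CPM in NTG nuclei, against 24.8, 34.2 and 72.7 CPM in EGFP-KASH only nuclei. Arc, a regulator of synaptic strength, was at 10.3 to 40.2 CPM in NTG nuclei, against 23.9, 28.6 and 64.4 CPM in EGFP-KASH only nuclei. For each of Egr1, Npas4 and Arc the other EGFP-KASH only libraries lay inside the NTG range. The summed level of the list was 357 to 639.7 CPM in NTG nuclei with a median of 483 CPM, against 438, 517 and 708 CPM in EGFP-KASH only nuclei, and overlapped.

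Cell type markers show how the sorted populations compared. Excitatory neuron markers (20 tested) had a median log2 fold change of -0.01, with 1 higher and 1 lower at an unadjusted p under 0.05. GABAergic neuron markers (26 tested) had one of 0.10, or 0.24 without replicate 2. Deep-layer projection neuron markers (24 tested) had one of 0.14 with 21 of 24 above 0, against 58% of all genes, and 2 higher and 1 lower at that p. Without replicate 2 their median was 0.09 with 15 of 24 above 0, against 52.3% of all genes, and 0 higher and 2 lower. Upper-layer markers (19 tested) had one of -0.11. Slc17a7, the vesicular glutamate transporter gene of cortical excitatory neurons, was at 140 to 196 CPM in NTG nuclei, against 163, 166 and 175 CPM in EGFP-KASH only nuclei. Gad1, the enzyme that makes GABA, was at 61.9 to 106 CPM in NTG nuclei with a median of 86.1 CPM, against 68.4, 60.6 and 61.1 CPM in EGFP-KASH only nuclei (log2 fold change 0.44 ± 0.17, SE, adjusted p = 0.324).

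Neurod1, a transcription factor of neuronal differentiation, was at 0.988 to 2.06 CPM in NTG nuclei, against 3.48, 2.41 and 2.94 CPM in EGFP-KASH only nuclei. The groups did not overlap and the log2 fold change was -0.98 ± 0.29 (SE, adjusted p = 0.205). Of the 49 ion channel and synaptic genes tested, 48 had a 95% interval inside 1.5-fold in both directions, and the median log2 fold change was 0.04. The neurexin gene Nrxn3 was at 4370.4 to 5916 CPM in NTG nuclei, against 4054, 4209 and 4539 CPM in EGFP-KASH only nuclei, and Kcnq3, of the M-current channel, was at 881 to 1024 CPM in NTG nuclei, against 1179, 1125 and 1019 CPM in EGFP-KASH only nuclei. Neither was called, with adjusted p = 0.209 for Nrxn3 and 0.282 for Kcnq3.

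The 22 markers of striatal projection neurons tested summed to 2002 to 12347 CPM in NTG nuclei with a median of 3289.8 CPM, against 2268, 5839 and 2378 CPM in EGFP-KASH only nuclei. NTG replicate 6 held the highest value of the 6 NTG libraries for all 22 markers. Drd2, the D2 dopamine receptor gene, was at 3.88 to 174 CPM in NTG nuclei, against 1.60, 43.3 and 9.37 CPM in EGFP-KASH only nuclei, and the median log2 fold change of the list was 0.97, or 0.29 without replicate 2. The groups overlapped throughout, and how much striatal tissue each sample held was not tested.

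Glial and vascular markers gave no called gene. Astrocyte markers (25 tested) had a median log2 fold change of -0.23 with 0 higher and 3 lower at an unadjusted p under 0.05, and one of -0.09 without replicate 2. They summed to 1005 to 1350.3 CPM in NTG nuclei, against 1456, 1124 and 1203 CPM in EGFP-KASH only nuclei. Gja1, the astrocyte gap junction gene, was at 3.52 to 6.30 CPM in NTG nuclei, against 6.07, 6.69 and 5.70 CPM in EGFP-KASH only nuclei, and Gfap, which rises in reactive astrocytes, was at 2.05 to 4.60 CPM in NTG nuclei, against 1.76, 2.81 and 2.21 CPM in EGFP-KASH only nuclei. Oligodendrocyte markers (30 tested) had a median of -0.09 with 21 of 30 below 0 and 0 in either direction at an unadjusted p under 0.05. Without replicate 2 their median was -0.24 with 30 of 30 below 0, and 0 higher and 2 lower at that p. Reactive astrocyte genes (23 tested) had a median of 0.20, or 0.11 without replicate 2.

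Microglia markers (27 tested) had a median of -0.03, with 3 higher and 0 lower at an unadjusted p under 0.05. With replicate 2 left out the median was -0.12 and the direction of that count turned, to 0 higher and 2 lower. P2ry12, a purine receptor of resting microglia, was at 2.16 to 4.36 CPM in NTG nuclei, against 0.200, 2.38 and 2.15 CPM in EGFP-KASH only nuclei, while Csf1r was at 2.26 to 4.94 CPM in NTG nuclei, against 4.76, 3.60 and 2.94 CPM in EGFP-KASH only nuclei. Of 38 markers of T, B, NK and myeloid cells 15 had enough counts to be tested, and their median log2 fold change was 0.66 with and 0.04 without replicate 2, in which 7 of the 15 had no count. Their summed level was 15.8 to 28.0 CPM in NTG nuclei, against 52.0, 25.8 and 18.4 CPM in EGFP-KASH only nuclei. Ptprc, the common leukocyte antigen CD45, was at 0.621 to 1.14 CPM in NTG nuclei, against 1.60, 0.684 and 1.88 CPM in EGFP-KASH only nuclei.

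Endothelial markers (23 tested) had a median of 0.16 with 4 higher and 0 lower at an unadjusted p under 0.05, and one of -0.11 without replicate 2. Pecam1, an endothelial adhesion molecule, was at 1.42 to 2.43 CPM in NTG nuclei, against 0.280, 0.756 and 1.12 CPM in EGFP-KASH only nuclei, with a log2 fold change of 1.52 ± 0.45 (SE, adjusted p = 0.210). The groups did not overlap for Pecam1, but Flt1, a vascular endothelial growth factor receptor, was at 2.75 to 6.05 CPM in NTG nuclei, against 7.03, 4.32 and 5.46 CPM in EGFP-KASH only nuclei. Mural cell and fibroblast markers (17 tested) had a median of 0.41, or -0.08 without replicate 2, and oligodendrocyte precursor markers (20 tested) had one of -0.02, or -0.13 without replicate 2.

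No gene of protein synthesis or respiration was called. Cytosolic ribosomal protein genes (57 tested) had a median log2 fold change of 0.14 with 44 of 57 above 0, against 58% of all genes. At an unadjusted p under 0.05 there were 11 higher and 1 lower, against 7.92% higher and 3.3% lower of all genes, and without replicate 2 the median was 0.09 with 2 higher and 0 lower. Rpl7 was at 6.62 to 9.30 CPM in NTG nuclei with a median of 8.35 CPM, against 2.52, 7.52 and 7.49 CPM in EGFP-KASH only nuclei, and its log2 fold change of 0.59 ± 0.15 (SE, adjusted p = 0.132) was 0.10 without replicate 2. Respiratory chain genes encoded in the nucleus (41 tested) had a median of 0.07, or 0.04 without replicate 2. Sdhb was at 28.0 to 31.8 CPM in NTG nuclei with a median of 29.5 CPM, against 18.9, 24.8 and 22.9 CPM in EGFP-KASH only nuclei. For Sdhb the groups did not overlap, also among replicates 3 and 5, and its log2 fold change was 0.43 ± 0.11 (SE, adjusted p = 0.132) and 0.31 without replicate 2. No gene encoded in the mitochondrial genome was tested.

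Autophagy genes held the smallest adjusted p of any list. Of 43 tested, the median log2 fold change was 0.09, with 9 higher and 3 lower at an unadjusted p under 0.05, against 7.92% higher and 3.3% lower of all genes. The median was 0.02 with 2 higher and 0 lower when replicate 2 was left out. Tfe3, a transcription factor that turns on lysosomal and autophagy genes, was at 18.6 to 21.7 CPM in NTG nuclei with a median of 20.2 CPM, against 9.87, 16.1 and 16.2 CPM in EGFP-KASH only nuclei. No library overlapped, and the log2 fold change was 0.54 ± 0.11 (SE, adjusted p = 0.0987), or 0.32 without replicate 2. The summed level of the list was 2293 to 2356 CPM in NTG nuclei, against 2126, 2266 and 2215 CPM in EGFP-KASH only nuclei, also without overlap. Apart from the interferon-stimulated genes, the sums of the other lists, of 35 in all, overlapped.

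RNA splicing genes (67 tested) had a median of -0.01 with 3 higher and 5 lower at an unadjusted p under 0.05, and 66 of the 67 had a 95% interval inside 1.5-fold. Srsf7, a serine/arginine-rich splicing factor, was at 29.7 to 36.5 CPM in NTG nuclei, against 37.1, 40.4 and 36.9 CPM in EGFP-KASH only nuclei, and Hnrnpa3 was at 39.3 to 42.9 CPM in NTG nuclei, against 43.5, 50.6 and 44.9 CPM in EGFP-KASH only nuclei. In both the groups did not overlap, and neither was called (adjusted p = 0.486 for Srsf7 and 0.518 for Hnrnpa3). RNA decay and surveillance genes (35 tested) had a median of 0.05, and nuclear and imprinted long non-coding RNAs (18 tested) one of 0.00, with Malat1 at 11401 to 13908.5 CPM in NTG nuclei, against 15079, 10534 and 11368 CPM in EGFP-KASH only nuclei.

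No stress response list had a called member. p53 target and DNA damage genes (31 tested) had a median of 0.00, with 2 higher and 0 lower at an unadjusted p under 0.05 (-0.06 with 0 higher and 1 lower without replicate 2), and unfolded protein and integrated stress response genes (33 tested) one of 0.01 with 0 in either direction at an unadjusted p under 0.05. Atf4, which drives the integrated stress response, was at 9.91 to 13.7 CPM in NTG nuclei, against 11.7, 12.2 and 13.6 CPM in EGFP-KASH only nuclei, and Mdm2, the p53-induced ubiquitin ligase, was at 32.2 to 42.0 CPM in NTG nuclei, against 22.9, 38.0 and 35.1 CPM in EGFP-KASH only nuclei. Heat shock genes (21 tested) had a median of -0.08 with 1 higher and 2 lower at an unadjusted p under 0.05. Hspa8, the constitutive Hsc70 chaperone, was at 49.1 to 78.3 CPM in NTG nuclei with a median of 58.0 CPM, against 66.5, 77.6 and 69.4 CPM in EGFP-KASH only nuclei (log2 fold change -0.27 ± 0.09, SE, adjusted p = 0.259).

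The remaining lists covered disease genes, the nuclear envelope and lipids. Genes linked to ALS or FTD (35 tested) had a median of 0.02, with 2 higher and 3 lower at an unadjusted p under 0.05 and 0 called (0.05 with 0 higher and 2 lower without replicate 2), and 32 of the 35 had a 95% interval inside 1.5-fold. Chmp2b was at 7.10 to 13.1 CPM in NTG nuclei, against 5.99, 6.84 and 6.58 CPM in EGFP-KASH only nuclei, and Tardbp, which encodes TDP-43, was at 45.4 to 66.4 CPM in NTG nuclei, against 51.2, 57.3 and 61.0 CPM in EGFP-KASH only nuclei. LINC complex and nuclear envelope genes (25 tested), which include the partners of KASH proteins, had a median of -0.01, or 0.06 without replicate 2. Sterol and fatty acid synthesis genes (28 tested) had one of 0.16 with 25 above 0, or 0.06 without replicate 2, extracellular matrix and axon guidance genes (49 tested) one of 0.06, and replication-dependent histone genes (18 tested) one of 0.05, or 0.00615 without replicate 2. The 8 X-inactivation and Y-linked genes had a median of 1.59, or -0.47 without replicate 2, with the sexes unequal between the groups.

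**Figure D5:**
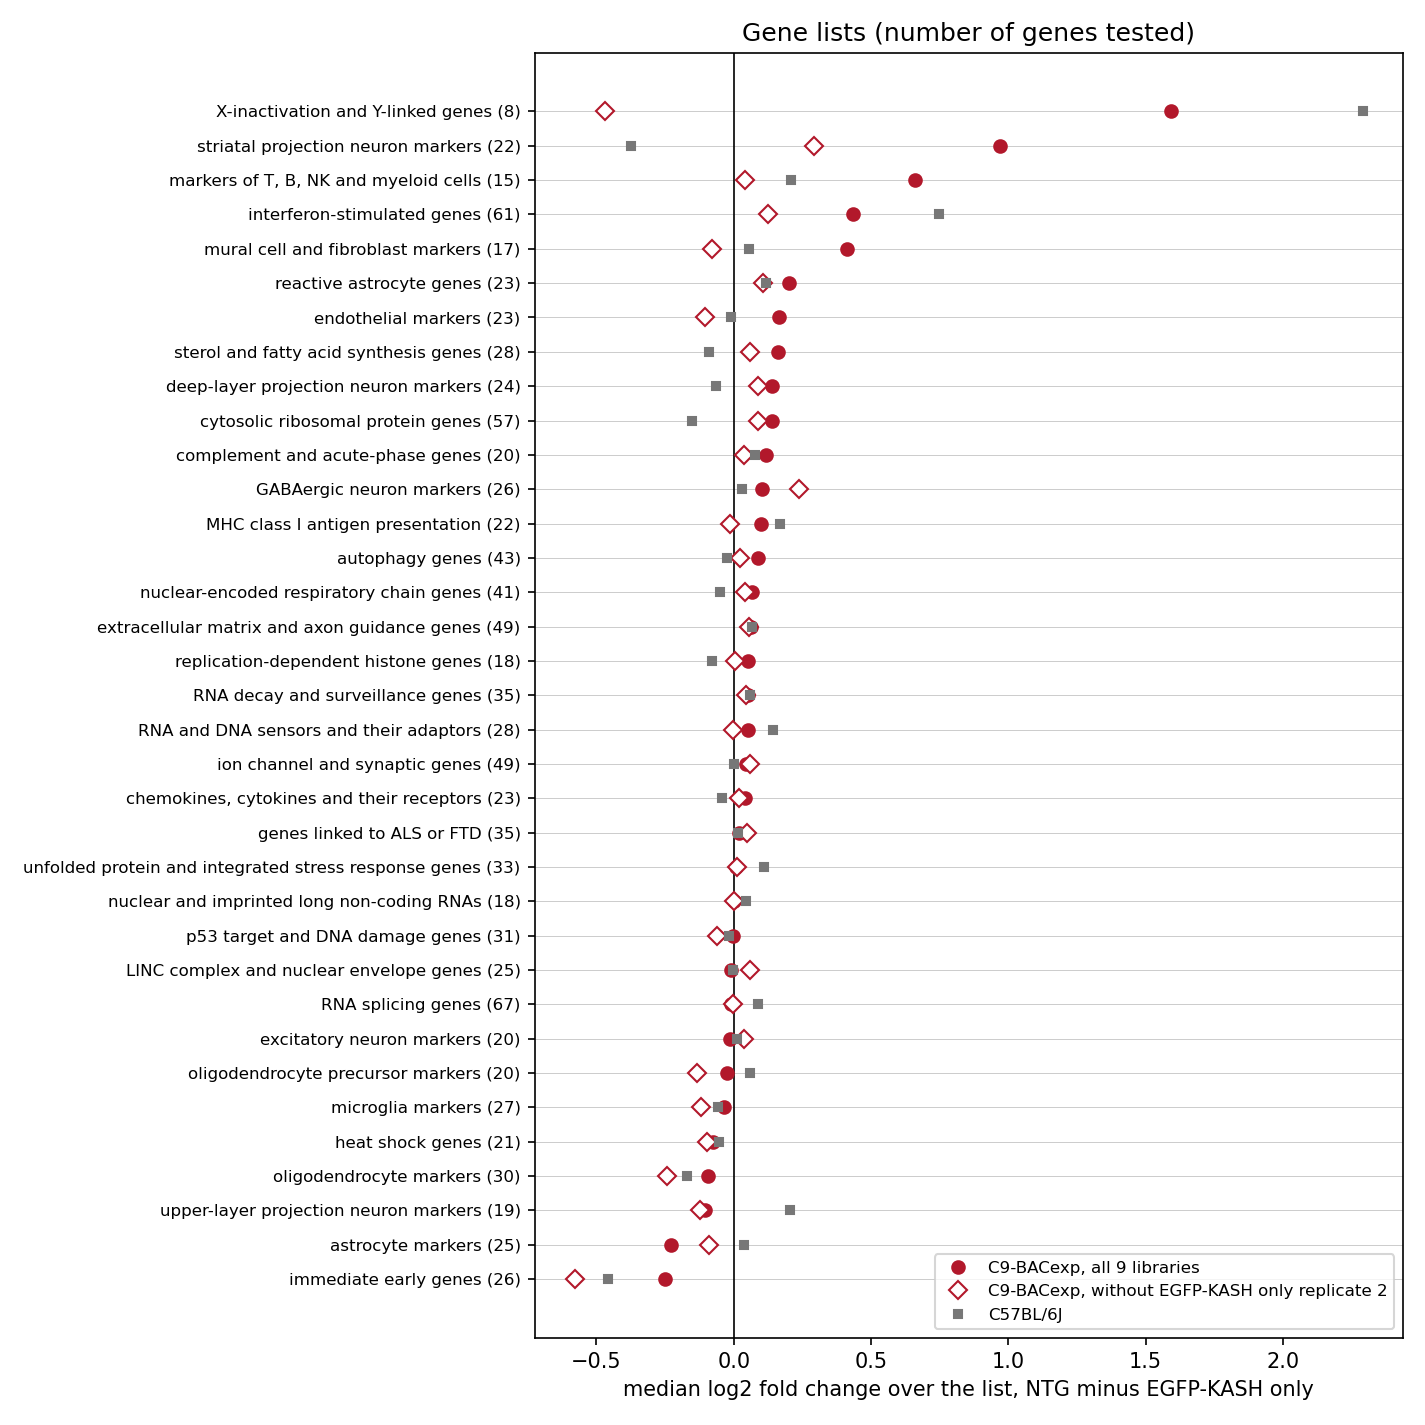
Median log2 fold change (NTG minus EGFP-KASH only nuclei, C9-BACexp) of each gene list with all libraries and without EGFP-KASH only replicate 2, with the C57BL/6J values beside them. Without replicate 2 the medians of interferon-stimulated genes (0.43 and 0.13), striatal markers (0.97 and 0.29) and immune cell markers (0.66 and 0.04) lay closer to 0, and that of splicing genes lay near 0 in both (-0.01 and -0.00370).

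The precision behind these values depended on abundance. Of 9269 genes whose level averaged 10 CPM or more over all 27 libraries, 95.6% had a 95% interval of the fold change inside 2-fold in both directions. For 83.2% it lay inside 1.5-fold. Of 16028 genes with at least 1 CPM the shares were 76.7% and 55.3%. Without the factors 92% and 65.7% of the 9269 abundant genes met those limits. These intervals were not adjusted for the number of genes tested. In simulated counts of genes at 10 CPM or more, fitted with 4 factors, 36 of 50 genes changed 2-fold were called. Of those changed 1.5-fold, 8 of 50 were called. No library like replicate 2 was simulated. For Ifit1 and Isg15, at under 1 CPM, the standard errors were 0.88 and 2.39 log2 units. They put a difference of 2-fold below what this depth could show.

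In C57BL/6J mice the same contrast, between 5 NTG and 4 EGFP-KASH only libraries, called 0 genes with edgeR, with 1712 (7.86%) at an unadjusted p under 0.05. Without the factors it called 0 with 828 (3.8%) at that level, while DESeq2 called 49 genes (0.225%) with the factors and 21 (0.0965%) without. The difference between the genotypes in the NTG effect was tested as an interaction and gave 0 genes with edgeR, with 2249 (10.3%) at an unadjusted p under 0.05 and 157 (0.721%) called by DESeq2 with the factors. Of the called genes, the log2 fold change in C57BL/6J mice was 0.66 ± 0.19 for Tll1 (SE, adjusted p = 0.473), 0.26 ± 0.11 for Arf4, -0.12 ± 0.10 for Rps6ka4 and 0.07 ± 0.09 for H2-DMa. Fold changes there are not given for Gm31298, Gm31137 and Gm46165. No C57BL/6J library exceeded 0.605 CPM for Gm31137 or 2.67 CPM for Gm46165. For none of the 7 called genes did the interaction pass the threshold (adjusted p from 0.201 to 0.465).

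List medians for interferon-stimulated genes were 0.43 in C9-BACexp mice, against 0.75 in C57BL/6J mice, and for immediate early genes -0.25 in C9-BACexp mice, against -0.46 in C57BL/6J mice. Over all genes the C57BL/6J median was 0.01. In C57BL/6J mice 7 interferon-stimulated genes were higher and 0 lower at an unadjusted p under 0.05, and 0 immediate early genes were higher and 7 lower. Without the factors these were 0 and 0, and 0 and 5. Of all genes, 7.86% with and 3.8% without the factors had that p, in either direction. Arc had a log2 fold change of -0.59 in C9-BACexp mice, against -1.44 ± 0.41 (SE) in C57BL/6J mice, and was called in neither (adjusted p = 0.630 in C9-BACexp and 0.473 in C57BL/6J mice). Striatal markers had medians of 0.97 in C9-BACexp mice and -0.37 in C57BL/6J mice. Without C9-BACexp EGFP-KASH only replicate 2 the C9-BACexp medians were 0.13 for interferon-stimulated genes, -0.58 for immediate early genes, which turned their order between the genotypes, and 0.29 for striatal markers. The difference between genotypes was not tested for lists. Over 9269 genes averaging 10 CPM or more, the fold changes of the genotypes had a Spearman correlation of -0.07 and a Pearson correlation of -0.60. The sign was the same for 49.1% of them. Without the factors and without replicate 2 the values were -0.13, -0.36 and 46.4%.

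C9-BACexp mice given crRNA-13 were set against the same 3 EGFP-KASH only libraries, so the values of that contrast share replicate 2 with those above and are given side by side without a test between them. The crRNA-13 contrast called 11 genes (0.0505%), 7 higher (0.0322%) and 4 lower (0.0184%). The log2 fold change of Tll1 was 1.252 for NTG and 1.12 for crRNA-13 nuclei, that of Rps6ka4 0.61 for NTG and 0.72 for crRNA-13 nuclei, and that of Gm31137 -3.99 for NTG and -4.46 for crRNA-13 nuclei. The median of the interferon-stimulated genes was 0.43 for NTG and 1.74 for crRNA-13 nuclei, and that of the immediate early genes was -0.25 for NTG and 0.48 for crRNA-13 nuclei. With replicate 2 left out the medians were 0.13 for NTG and 1.254 for crRNA-13 nuclei for the interferon-stimulated genes, and -0.58 for NTG and 0.16 for crRNA-13 nuclei for the immediate early genes.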

How the data were processed

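RNA of FACS-isolated EGFP-KASH+ motor cortex nuclei was made into total RNA libraries (Tecan Universal Plus) that were pooled and sequenced single-end on 1 lane. The authors quantified reads with Salmon 1.10.0 against spliced and unspliced GRCm39 transcripts with the human C9ORF72 transcripts and EGFP-KASH added, and deposited the expected counts per gene that tximport (R 4.3.1) scaled by transcript length. Columns of per-sample values not used numbered 0.

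The expected counts were rounded to whole numbers, and 21768 of 39338 features passed edgeR's filterByExpr (minimum count 10, minimum total 15). Totals were 21508829 to 36777972 counts per library. All 6 groups and 27 libraries entered 1 robust quasi-likelihood fit (edgeR 4.0.16, R 4.3.3) with TMM scaling and 4 factors estimated from residuals. The study used limma-trend with 4 RUVSeq factors, whose variant is not given in the sources used here. P-values were adjusted over all genes tested within the comparison, whereas the study adjusted across its pairwise comparisons together. A gene was called at a fold over 1.2 and an adjusted p under 0.05. The transcripts of the transgene, the reporter and mouse C9orf72 were compared by exact permutation tests of the difference in mean log2(CPM + 0.5). For V2 that difference depends on the added 0.5, because EGFP-KASH only replicate 2 was at 0. Coordinates came from an annotation of GRCm39. The pipeline was tested on simulated data. Intervals and zeros cover counting error and the spread between libraries, not losses before sequencing.

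The libraries compared and the gene lists were chosen with earlier results of these data known. Genes were named as called genes, as the list members of smallest p, and as transgene, reporter and C9orf72 transcripts. List members whose groups did not overlap and well-known members of a list were chosen after their values were seen. Alternatives were other factor numbers, scalings, filters, thresholds and tools (limma 3.58.1, DESeq2 1.42.0), a replicate block and leaving out each library. Sex as a covariate, library weights, leaving out EGFP-KASH only replicate 2 with no factors, leaving out 2 libraries together, and leaving out the libraries of the other groups were chosen after seeing the data.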

Additional observations from a re-analysis of the deposited data

Results flagged for a closer look

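A test for a single far library (Dixon's ratio at the 95% level) was run on 57 sets of values, in groups of 4 to 6 libraries, and marked 7. Chance marks about 1 set in 20. The 3 EGFP-KASH only libraries of C9-BACexp mice were too few for it, so replicate 2 was not examined this way.

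Among the called genes, NTG replicate 1 stood apart from the other C9-BACexp NTG libraries for Arf4, at 18.7 CPM with the nearest at 15.2 CPM. The same library stood apart for H2-DMa, at 17.9 CPM with the nearest at 21.96 CPM, and it had the highest summed level of complement and acute-phase genes, 224 CPM with the nearest at 166 CPM. The summed striatal projection neuron markers of C9-BACexp NTG replicate 6 were 12347 CPM, with the nearest library at 4316 CPM.

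The remaining 3 were in groups set beside the comparison. The summed level of the interferon-stimulated genes was 837 CPM in C57BL/6J NTG replicate 2, with the nearest library of its group at 454 CPM, and 1297 CPM in C9-BACexp crRNA-13 replicate 2, with the nearest at 630.3 CPM. That crRNA-13 library also had the highest summed level of immediate early genes, 1608 CPM, with the nearest at 835 CPM. With edgeR and the factors, 0 genes passed the test of a difference between the genotypes, with 2249 at an unadjusted p under 0.05 and 157 called by DESeq2.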

How the results depend on the processing

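The direction of the 7 called genes held under every alternative run, but the number of calls depended on the settings. Against 7 genes called between NTG and EGFP-KASH only nuclei of C9-BACexp mice and 11 between crRNA-13 and EGFP-KASH only nuclei, the counts were 2 and 2 with no factors, 2 and 2 with 1 factor, 1 and 1 with 2 factors, and 10 and 20 with limma-trend and 4 factors, or 0 and 0 with limma-trend and no factors. DESeq2 called 239 and 339 with 4 factors, and 27 and 18 without. In the same DESeq2 fits the C57BL/6J contrast, at 0 by edgeR, had 49 and 21 genes, and the difference between genotypes, at 0 by edgeR, had 157 and 12. The lists, with 0 called members by edgeR, had 11 with the factors and 0 without, beside 1.1% and 0.124% of all genes. The share over all list members was not computed. Counts of called list members, here and below, are therefore not read as results about the lists. Scaling by library size alone called 5 and 6 genes, a minimum of 1 CPM in 3 libraries 6 and 7, stricter limits on the fold and the adjusted p (0.01) 0 and 4, sex as a covariate 3 and 5, and limma-voom with library weights 3 and 0. The 9 libraries fitted alone with no factors gave 1 gene, and no filter gave 1 gene for the difference between genotypes.

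Adjusting p-values together with the 5 comparisons of the study gave 141 genes for NTG and 201 for crRNA-13 nuclei, 31 in C57BL/6J mice and 88 for the difference between genotypes. Of the 141 genes, out of 21768 tested, 7 were list members. Leaving out EGFP-KASH only replicate 2 with no factors gave 1 and 2 genes, and leaving it out together with NTG replicate 6, with the factors, gave 2 and 2 and 1 gene for the difference. The same-numbered libraries had correlations of -0.060, -0.064 and 0.070 for numbers 2, 3 and 5. Differently numbered libraries ran from -0.188 to 0.120. So few pairs cannot show whether the numbers pair the libraries. A replicate block gave 3 and 2 genes with the factors and 0 and 0 without.

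Leaving out each library in turn gave 0 to 97 genes for NTG, 2 to 116 for crRNA-13, 0 to 14 in C57BL/6J mice, 0 to 2 for the difference between genotypes and 0 to 4 list members. The NTG count was 1 without EGFP-KASH only replicate 2, 97 without replicate 3 and 38 without replicate 5, and 1, 4 and 0 without NTG replicates 2, 3 and 4. Each called gene lost its call in at least 2 of these 9 fits, Gm31137 without EGFP-KASH only replicate 5 and without NTG replicate 4. The log2 differences of the transcripts ran from -0.08 to 0.39 for V1, -0.37 to 2.94 for V2, -0.61 to 0.07 for V3, -0.16 to -0.02 for their sum, 0.14 to 0.68 for EGFP-KASH and 0.05 to 0.22 for mouse C9orf72, with the sign of V1, V2 and V3 turned without replicate 2 (-0.0764, -0.368 and 0.0742). The causes of these shifts were not tested. The chief limit is the 3 EGFP-KASH only libraries, of which 1 stood apart. Genes under 1 CPM are read from few counts, and a count of 0 in 1 library moves their fitted fold change.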
